A study of Mus musculus with 3 samples.

Results

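The mouse Hox genes were followed in 3 RNA samples, each on 1 single-colour Agilent array. Members were all genes named Hox, a cluster letter from a to d and a paralog number. There were 39 of them among 20546 genes with a named probe: 11 in Hoxa (chromosome 6), 10 in Hoxb (chromosome 11), 9 in Hoxc (chromosome 15) and 9 in Hoxd (chromosome 2). The SiO2-3TF-3C spleen sample came from spleens of female mice given SiO2 (silica) and a further treatment that the labels name 3TF-3C without spelling it out. Normal liver of female mice is called a positive control in the labels, which name no treatment for it. The SiO2 spleen sample came from spleens of female mice given SiO2 alone, and is the control named in the series design. Spleens were taken on day 82 and 5 samples were pooled per group; whether the liver was pooled is not stated, and the sources used here give neither strain nor age. Both spleen samples carry the silica treatment, and no spleen without it was analysed here. With 1 array per group there is no replicate, so neither a p-value nor a spread between animals is given, and precision is limited by the number of arrays. Values after ± are the technical error of a log2 difference from the scanner software.

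Hox genes encode homeodomain transcription factors that give cells a position along the head-to-tail axis of the embryo. Genes with low paralog numbers lie at the 3′ end of a cluster and act towards the head, and genes with high numbers lie at the 5′ end and act towards the tail. Fibroblasts and other connective tissue cells of adult organs keep part of this code, and Hoxa and Hoxb genes are also active in blood stem and progenitor cells. The proteins bind DNA together with cofactors of the Pbx, Meis and Pknox families, silent members are held down by Polycomb complexes, and retinoic acid switches on the 3′ members in the embryo.

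All levels below are log2 signals minus the 75th percentile of the same array, so 0 is that percentile (an intensity of 515 on the SiO2-3TF-3C spleen array, 390 on the liver array and 569 on the SiO2 spleen array). A gene is called measured where the scanner software flagged its probe as well above background. Every one of the 39 Hox genes, by the probe used for it, lay below the 75th percentile on all 3 arrays. A second Hoxa9 probe, left out for its flags and described below, was the exception among Hox probes. The lowest signal well above background was -6.20 on the SiO2-3TF-3C spleen array, -5.57 on the liver array and -6.04 on the SiO2 spleen array. Where only 1 side of a comparison was measured, the fold is a bound against the higher of that floor and the dim probe's own signal. Levels of different genes come from different probes and are not ranked against each other.

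The labels were checked on marker lists. All 8 hepatocyte markers were well above background in the SiO2-3TF-3C spleen and in liver, and 6 of 8 in the SiO2 spleen, where Ttr and Apoa1 were not. Their summed level, as a log2 value, was 7.89 in the SiO2-3TF-3C spleen, 9.11 in liver and 0.19 in the SiO2 spleen. Spleen and blood cell markers were present on the liver array too. All 6 B cell and all 6 T cell markers were well above background on every array, as were 10 of 11 spleen organ regulators. The homeobox gene Tlx1, which the spleen needs to form and whose older name is Hox11 although it lies in no Hox cluster, had a level of -0.83 in the SiO2-3TF-3C spleen, -2.36 in liver and -0.69 in the SiO2 spleen. In liver it was thus 1.66 ± 0.21 lower on the log2 scale relative to the SiO2 spleen.

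Promoter sequences of some of the genes described below are shown because the genes lay 2-fold or more lower in liver in the comparison with the SiO2 spleen; Hoxd13, well above background on no array, is added for contrast. Each covers 250 bases before and 50 bases after a transcript start, from RefSeq on build GRCm38.p6, written 5′ to 3′ along the gene, with capitals marking the CpG dinucleotides. Hoxd11 has 2 starts in that table. Hoxb7 and Hoxb9 belong to the same group and have no entry.
Hoxa7 promoter, chr6:52218524-52218823 (- strand), 9 CpG: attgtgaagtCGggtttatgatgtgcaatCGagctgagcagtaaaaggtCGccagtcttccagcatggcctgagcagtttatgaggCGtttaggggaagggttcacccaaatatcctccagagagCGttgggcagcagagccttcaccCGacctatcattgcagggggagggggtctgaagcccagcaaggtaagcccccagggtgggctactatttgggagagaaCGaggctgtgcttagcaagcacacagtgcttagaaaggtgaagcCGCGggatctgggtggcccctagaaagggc
Hoxb4 promoter, chr11:96318017-96318316 (+ strand), 14 CpG: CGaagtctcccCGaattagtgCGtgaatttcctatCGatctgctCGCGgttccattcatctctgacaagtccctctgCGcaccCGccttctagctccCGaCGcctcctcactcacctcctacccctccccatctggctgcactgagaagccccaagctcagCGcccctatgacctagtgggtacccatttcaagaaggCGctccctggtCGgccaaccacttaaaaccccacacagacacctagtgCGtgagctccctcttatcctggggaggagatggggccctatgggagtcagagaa
Hoxc4 promoter, chr15:103034145-103034444 (+ strand), 9 CpG: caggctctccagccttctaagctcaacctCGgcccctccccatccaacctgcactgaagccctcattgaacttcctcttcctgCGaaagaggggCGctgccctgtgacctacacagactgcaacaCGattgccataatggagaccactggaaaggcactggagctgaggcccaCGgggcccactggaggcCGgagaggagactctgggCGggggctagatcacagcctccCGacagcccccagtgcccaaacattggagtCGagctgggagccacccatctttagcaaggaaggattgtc
Hoxd8 promoter, chr2:74704365-74704664 (+ strand), 6 CpG: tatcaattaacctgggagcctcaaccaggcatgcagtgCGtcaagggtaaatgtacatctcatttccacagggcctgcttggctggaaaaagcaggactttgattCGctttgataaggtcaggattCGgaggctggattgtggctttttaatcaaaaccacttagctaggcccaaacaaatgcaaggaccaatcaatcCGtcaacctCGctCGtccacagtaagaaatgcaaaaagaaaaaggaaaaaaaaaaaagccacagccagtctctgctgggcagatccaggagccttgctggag
Hoxd11 promoter, chr2:74679308-74679607 (+ strand), 4 CpG: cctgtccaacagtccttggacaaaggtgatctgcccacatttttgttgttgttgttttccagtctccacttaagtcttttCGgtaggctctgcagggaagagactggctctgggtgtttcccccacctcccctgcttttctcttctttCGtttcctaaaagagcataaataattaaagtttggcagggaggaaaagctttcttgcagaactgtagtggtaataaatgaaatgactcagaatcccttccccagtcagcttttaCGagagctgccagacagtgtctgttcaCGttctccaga
Hoxd11 promoter, chr2:74682073-74682372 (+ strand), 25 CpG: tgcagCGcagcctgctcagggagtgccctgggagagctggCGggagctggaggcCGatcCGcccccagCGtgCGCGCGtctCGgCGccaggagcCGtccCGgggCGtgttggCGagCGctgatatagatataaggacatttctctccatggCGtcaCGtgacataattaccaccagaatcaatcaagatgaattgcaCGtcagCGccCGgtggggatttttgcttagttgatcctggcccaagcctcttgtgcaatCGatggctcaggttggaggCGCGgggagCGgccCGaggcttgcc
Hoxd13 promoter, chr2:74667975-74668274 (+ strand), 37 CpG: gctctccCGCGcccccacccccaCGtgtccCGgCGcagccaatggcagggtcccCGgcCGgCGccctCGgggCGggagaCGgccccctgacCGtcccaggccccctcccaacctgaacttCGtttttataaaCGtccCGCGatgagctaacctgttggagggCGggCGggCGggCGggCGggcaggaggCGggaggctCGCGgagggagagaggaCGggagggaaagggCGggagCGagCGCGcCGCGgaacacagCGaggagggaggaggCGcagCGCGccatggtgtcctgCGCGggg
The table held 24 promoters of 22 Hox genes, with a median of 14.5 CpG per promoter (range 4 to 45), against a median of 7 over all 32851 promoters. The 14 promoters of Hox genes measured on at least 1 array had a median of 11.5 CpG, and the 10 of Hox genes measured on none a median of 17.5, with overlapping ranges of 4 to 45 and 10 to 37. Counted per gene, the medians were closer, at 14 and 16.5. Hoxd13 has the highest count of those measured on no array, whereas Hoxa13, with 45 CpG, was measured on all 3 arrays. The motif TGATNNAT, a sequence that Pbx and Hox proteins bind together, was searched on both strands and matched in 4 of 24 Hox promoters (16.7%) and in 8.85% of all promoters. One of the 4 is the downstream promoter of Hoxd11. A match describes the letters in this window and says nothing of binding.

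Hox genes were detected less widely in liver than in either spleen sample. In the SiO2-3TF-3C spleen 26 of 39 were well above background, in liver 20 and in the SiO2 spleen 26. Over all 20546 genes the shares were 84.5% in the SiO2-3TF-3C spleen, 81.3% in liver and 83.2% in the SiO2 spleen, so the Hox shares of 66.7%, 51.3% and 66.7% lay below them. The liver floor of -5.57 was above those of the SiO2-3TF-3C spleen (-6.20) and the SiO2 spleen (-6.04), and its part in these counts was not tested. In liver 1 of 9 Hoxd genes was measured, Hoxd3, against 4 in each spleen sample (Hoxd3, Hoxd4, Hoxd8 and Hoxd11). Hoxd4 lay close to the liver floor in the SiO2-3TF-3C spleen (-5.46) and the SiO2 spleen (-5.22). Further above it, in the same order, were Hoxd8 (-4.82 and -4.15) and Hoxd11 (-4.63 and -3.36). Hoxa had 9 of 11 members measured in the SiO2-3TF-3C spleen, 8 in liver and 8 in the SiO2 spleen. Hoxb had 8 of 10 in the SiO2-3TF-3C spleen, 7 in liver and 8 in the SiO2 spleen, and Hoxc had 5, 4 and 6 of 9 in the same order.

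By position, the anterior paralogs (1 to 3) had the same 6 of 8 genes measured on every array. The central paralogs (4 to 8) had 12 of 15 measured in the SiO2-3TF-3C spleen, 8 in liver and 12 in the SiO2 spleen. The posterior paralogs (9 to 13) had 8 of 16 in the SiO2-3TF-3C spleen, 6 in liver and 8 in the SiO2 spleen. Measured on all 3 arrays were 19 genes, on some arrays 9, and on none 11. The 11 were Hoxa10, Hoxa11, Hoxb1, Hoxb8, Hoxc8, Hoxc13, Hoxd1, Hoxd9, Hoxd10, Hoxd12 and Hoxd13, and they have no fold. Of the 9, Hoxa5 was measured in the SiO2-3TF-3C spleen alone, Hoxc5 and Hoxc9 in the SiO2 spleen alone, Hoxc11 in liver and the SiO2-3TF-3C spleen, and Hoxb13, Hoxc6, Hoxd4, Hoxd8 and Hoxd11 in both spleen samples. Hoxd11 lies in its cluster between Hoxd10 and Hoxd12, neither of which was measured on any array.

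**Figure D1:**
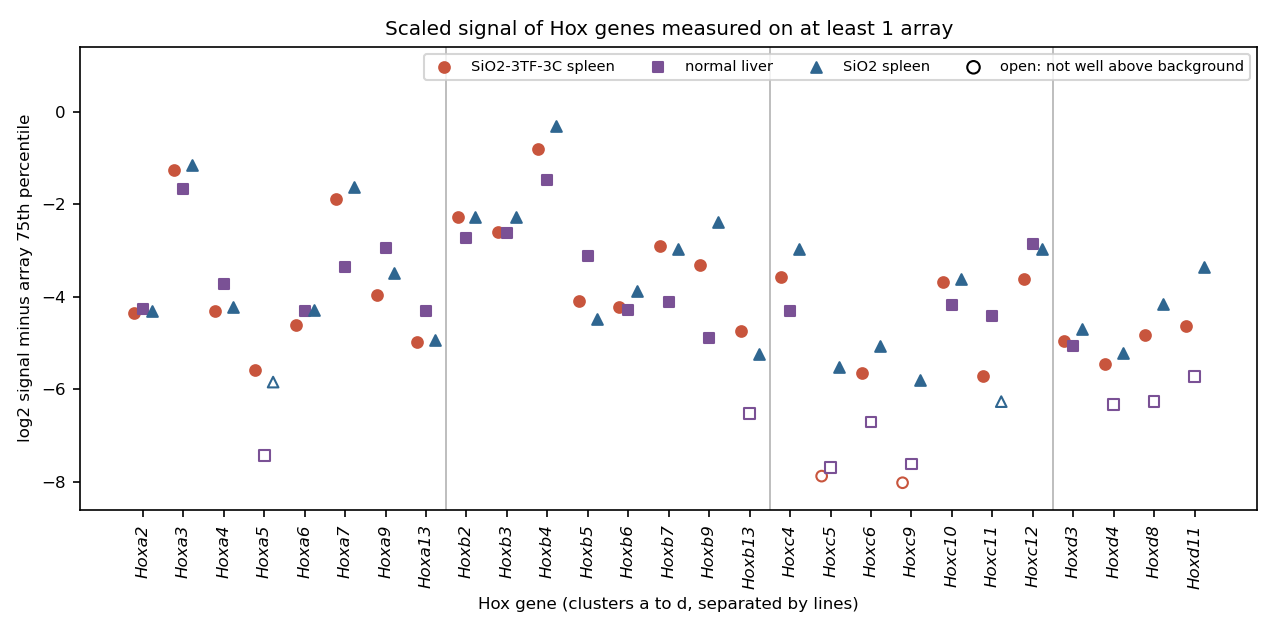
Scaled signal (log2 signal minus the array's 75th percentile) of Hox genes measured on at least 1 array, in the SiO2-3TF-3C spleen (circles), normal liver (squares) and SiO2 spleen (triangles); open symbols are not well above background. All points lie below 0, and 4 Hoxd genes are measured in the spleen samples but only Hoxd3 in liver, whose floor of -5.57 is the highest among the arrays.

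The first comparison sets the SiO2-3TF-3C spleen against the SiO2 spleen, the control of the series design. Among 28 Hox genes measured in the SiO2-3TF-3C spleen or the SiO2 spleen, 1, Hoxd11, was lower by 2-fold or more with 3TF-3C, and 0 were higher by that much. Over all genes 1.39% were lower and 5.22% higher by 2-fold or more, so a single call among 28 is near the background. The median log2 difference over the 24 Hox genes measured on both arrays was -0.29 (range -1.27 to 0.49), against -0.16 over all genes. Below 0 were 20 of the 24 (83.3%), and 67.1% of all genes. With normexp the Hox median was -0.047 and that of all genes -0.066, with 16 of the 24 below 0, so the Hox median was then no lower than that of all genes.

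Hoxd11, a posterior gene known from limb, kidney and vertebral patterning, had a level of -4.63 in the SiO2-3TF-3C spleen and -3.36 in the SiO2 spleen, and its liver probe was not well above background. It was 1.27 ± 0.24 lower on the log2 scale (2.42-fold) in the SiO2-3TF-3C spleen, at intensities of 20.7 against 55.3. With normexp background correction, which adds an offset of 50 to each signal, that difference was -0.36 and the call was lost. Hoxb9, a posterior gene active in the thoracic region, lay just inside 2-fold, at -3.32 in the SiO2-3TF-3C spleen and -2.38 in the SiO2 spleen (difference -0.94 ± 0.21). Hoxc12, a gene of the tail end of its cluster, was at -3.63 in the SiO2-3TF-3C spleen and -2.96 in the SiO2 spleen (-0.66 ± 0.21). For these 3 posterior genes the difference was over 3 times its technical error, whereas Hoxc10 (-0.06 ± 0.22) and Hoxa13 (-0.03 ± 0.28) differed by less than theirs. That error holds no spread between animals, and the median over all genes was itself -0.16. Hoxc10 was at -3.68 in the SiO2-3TF-3C spleen and -3.61 in the SiO2 spleen, and Hoxa13 at -4.97 in the SiO2-3TF-3C spleen and -4.94 in the SiO2 spleen.

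Hoxa9, which supports the growth of blood progenitors, was at -3.96 in the SiO2-3TF-3C spleen and -3.49 in the SiO2 spleen (-0.47 ± 0.22). A brighter Hoxa9 probe was left out because its spot was flagged as non-uniform on 2 arrays, the liver and the SiO2 spleen. With flagged spots kept, that probe had levels of 3.56 in the SiO2-3TF-3C spleen, 5.46 in liver and 4.38 in the SiO2 spleen. The probe used for Hoxa9 lay at -3.96, -2.94 and -3.49 in the same order, so the 2 probes disagree widely in level. Which of them follows Hoxa9 RNA was not tested. Between the spleen samples the brighter probe gave a difference of -0.82. Hoxb13 went the other way, at -4.75 in the SiO2-3TF-3C spleen and -5.23 in the SiO2 spleen (0.49 ± 0.31), close to the floor. Hoxc11 was measured at -5.70 in the SiO2-3TF-3C spleen and was dim in the SiO2 spleen, which gives at least 1.26-fold higher. Hoxc9 was measured in the SiO2 spleen alone, at -5.80, which gives at least 1.32-fold lower in the SiO2-3TF-3C spleen.

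Among the central genes, Hoxd8 was at -4.82 in the SiO2-3TF-3C spleen and -4.15 in the SiO2 spleen (-0.67 ± 0.25). Hoxc4 was at -3.57 in the SiO2-3TF-3C spleen and -2.97 in the SiO2 spleen (-0.59 ± 0.21). Hoxb4, whose protein promotes self-renewal of blood stem cells when supplied in excess, was at -0.80 in the SiO2-3TF-3C spleen and -0.31 in the SiO2 spleen (-0.49 ± 0.20). These differences were all under 2-fold and all in the same direction. Hoxc6 was at -0.58 ± 0.33, Hoxb6 at -0.33 ± 0.23, Hoxa6 at -0.32 ± 0.24, Hoxa7 at -0.25 ± 0.21, Hoxd4 at -0.24 ± 0.35 and Hoxa4 at -0.09 ± 0.24. Levels in the SiO2-3TF-3C spleen and the SiO2 spleen were -5.65 and -5.07 for Hoxc6, -4.21 and -3.89 for Hoxb6, -4.62 and -4.29 for Hoxa6, and -5.46 and -5.22 for Hoxd4. For Hoxa4 they were -4.32 and -4.23. Hoxb7 differed by 0.06 ± 0.21. Hoxb5, which marks long-term blood stem cells in mouse bone marrow, was higher at -4.08 in the SiO2-3TF-3C spleen, against -4.49 in the SiO2 spleen (0.41 ± 0.24). Hoxc5 was measured in the SiO2 spleen alone, at -5.53, and was at least 1.59-fold lower in the SiO2-3TF-3C spleen, where Hoxa5, a gene of lung and neck patterning, was at least 1.20-fold higher.

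Among the anterior genes the differences were small, all under 2-fold. Hoxa3, needed for the thymus and parathyroid, was at -1.27 in the SiO2-3TF-3C spleen and -1.16 in the SiO2 spleen (-0.11 ± 0.20). Hoxb2 and Hoxa2, genes of the hindbrain and branchial arches, differed by 0.01 ± 0.21 and -0.03 ± 0.24, with levels of -2.27 and -4.35 in the SiO2-3TF-3C spleen and -2.28 and -4.31 in the SiO2 spleen. Hoxb3, with a level of -2.28 in the SiO2 spleen, was at -0.32 ± 0.21. Hoxd3 was at -4.96 in the SiO2-3TF-3C spleen and -4.70 in the SiO2 spleen (-0.27 ± 0.28). The median was -0.19 over the 6 anterior genes measured on both arrays, -0.32 over 11 central and -0.47 over 7 posterior ones. By cluster it was -0.18 for Hoxa, -0.15 for Hoxb, -0.59 for Hoxc and -0.47 for Hoxd, from 8, 8, 4 and 4 genes. With normexp the medians were -0.043 for anterior, -0.040 for central and -0.23 for posterior genes, so the order of the medians by position was not kept. By cluster they were then -0.029 for Hoxa, 0.042 for Hoxb (sign turned), -0.18 for Hoxc and -0.12 for Hoxd.

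**Figure D2:**
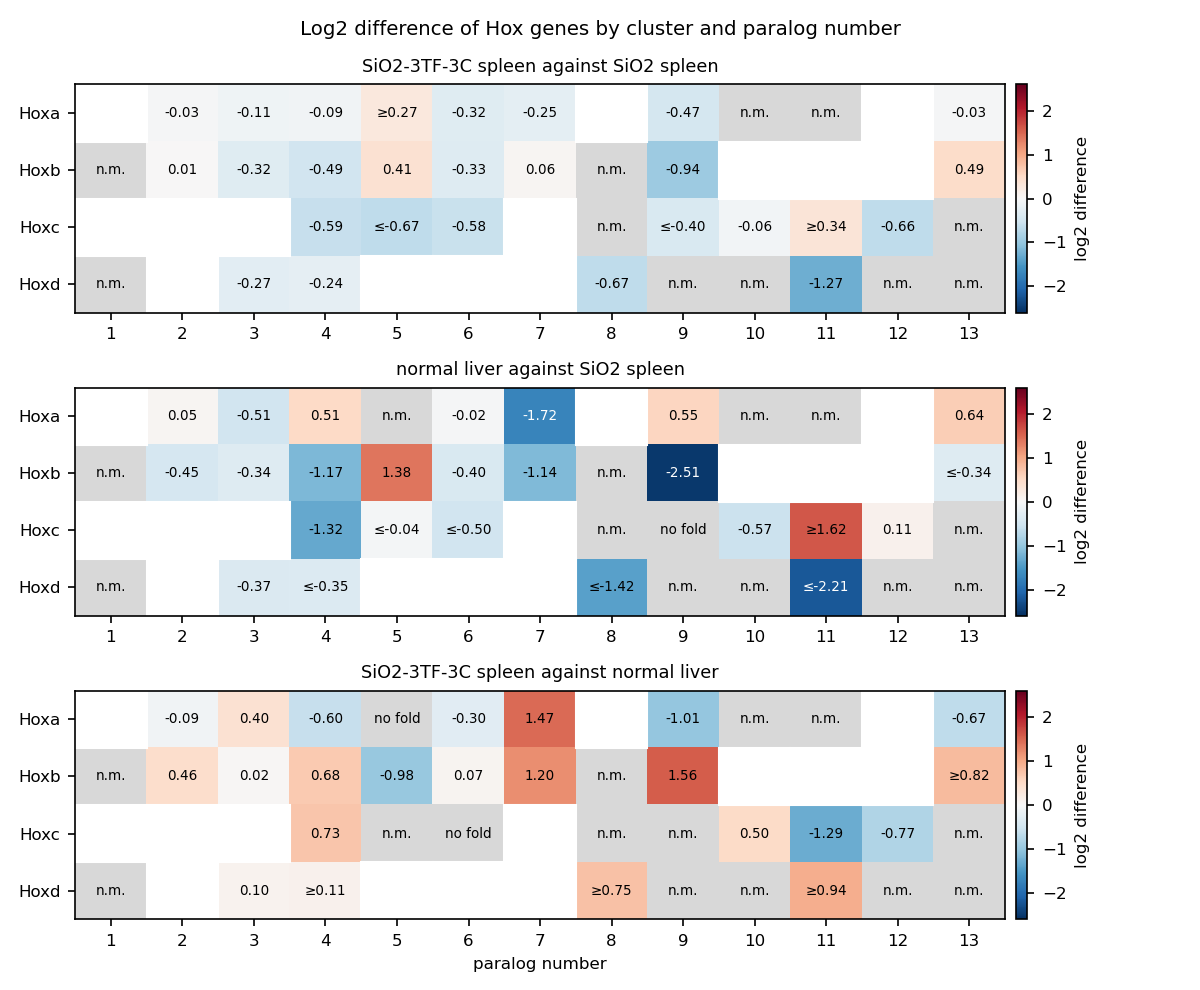
Log2 difference of Hox genes by cluster (rows) and paralog number (columns) in the 3 comparisons; blue is lower and red higher in the first-named sample, "≤" and "≥" mark bounds, n.m. means not well above background on either array, "no fold" a bound that gives none, and blank cells show no value. Hoxd11 at -1.27 is the lowest value in the top panel, and Hoxb9 at -2.51 in the middle one.

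The second comparison sets normal liver against the SiO2 spleen; it shares the SiO2 spleen array with the first comparison. Of 27 Hox genes measured in liver or the SiO2 spleen, 7 (25.9%) lay 2-fold or more lower in liver and 2 (7.41%) higher by that much. Over all genes these shares were 16.7% lower and 15.1% higher. The median over the 19 Hox genes measured on both arrays was -0.40, against -0.15 over all genes. With normexp correction 0 genes were past 2-fold and the Hox median turned to 0.12, against 0.042 over all genes.

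The 7 lower genes were central or posterior, as were the 2 higher ones. Of the Hox genes measured here, 6 were anterior, 12 central and 9 posterior. Hoxb9 had a level of -4.88 in liver and -2.38 in the SiO2 spleen, 2.51 ± 0.27 lower on the log2 scale (5.68-fold), at intensities of 13.2 and 109.6. Hoxa7, a thoracic gene, was at -3.35 in liver and -1.63 in the SiO2 spleen (-1.72 ± 0.22), and its level in the SiO2-3TF-3C spleen, -1.88, was close to that of the SiO2 spleen. Hoxb7 was at -4.11 in liver and -2.97 in the SiO2 spleen (-1.14 ± 0.24), with -2.91 in the SiO2-3TF-3C spleen. Both paralogs of number 7 were thus lower in liver than on either spleen array.

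Hoxc4 was at -4.30 in liver and -2.97 in the SiO2 spleen (-1.32 ± 0.24). Hoxb4 was at -1.48 in liver and -0.31 in the SiO2 spleen (-1.17 ± 0.20), with the brightest of these signals, at intensities of 139.5 and 458.7. Hoxd11 was at least 4.62-fold and Hoxd8 at least 2.67-fold lower in liver, where neither was well above background. Under normexp correction Hoxb9 was at -0.91, Hoxa7 at -0.93 and Hoxb4 at -0.92, all just inside 2-fold, while Hoxc4 was at -0.33 and Hoxb7 at -0.20. For Hoxd11 and Hoxd8, dim in liver, normexp gave only bounds, of -0.24 or lower and -0.027 or lower. Such bounds do not show how far liver lay below the SiO2 spleen.

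Hoxb5 and Hoxc11 were higher in liver. Hoxb5 was at -3.11 in liver and -4.49 in the SiO2 spleen (1.38 ± 0.24, and 0.81 under normexp). Hoxc11 was measured in liver at -4.42 and was dim in the SiO2 spleen, which gives at least 3.08-fold higher (a bound of at least 0.65 on the log2 scale under normexp). Hoxa9 differed by 0.55 ± 0.22, Hoxa4 by 0.51 ± 0.24 and Hoxa13 by 0.64 ± 0.28, each under 2-fold. Their liver levels were -2.94, -3.72 and -4.30. The brighter Hoxa9 probe, with flagged spots kept, gave 1.08. So within Hoxa, liver was higher for some members and lower for others, with 4 of 8 on each side of 0 (6 above and 2 below with normexp).

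The other genes measured on both arrays lay within 2-fold between liver and the SiO2 spleen. Hoxc10 at -0.57 ± 0.24, Hoxa3 at -0.51 ± 0.21, Hoxb2 at -0.45 ± 0.21, Hoxb6 at -0.40 ± 0.25, Hoxd3 at -0.37 ± 0.34 and Hoxb3 at -0.34 ± 0.21. Hoxa2, Hoxa6 and Hoxc12 differed by 0.05 ± 0.26, -0.02 ± 0.25 and 0.11 ± 0.21, within their errors. Their liver levels were -4.26, -4.32 and -2.85. Liver levels of the others were -4.18 for Hoxc10, -1.66 for Hoxa3, -2.73 for Hoxb2, -4.28 for Hoxb6, -5.07 for Hoxd3 and -2.62 for Hoxb3. The Hoxd3 signal lay within 1 log2 unit of the liver floor. Hoxc6, Hoxd4 and Hoxb13 were dim in liver and at least 1.41-fold, 1.27-fold and 1.26-fold lower there, and Hoxc5 at least 1.03-fold lower. The SiO2 spleen signals of these genes lay within 0.50 of the liver floor of -5.57, and that of Hoxc9, at -5.80, lay below it, so Hoxc9 has no bound. Whether these 5 genes lay within 2-fold is not known from such bounds.

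**Figure D3:**
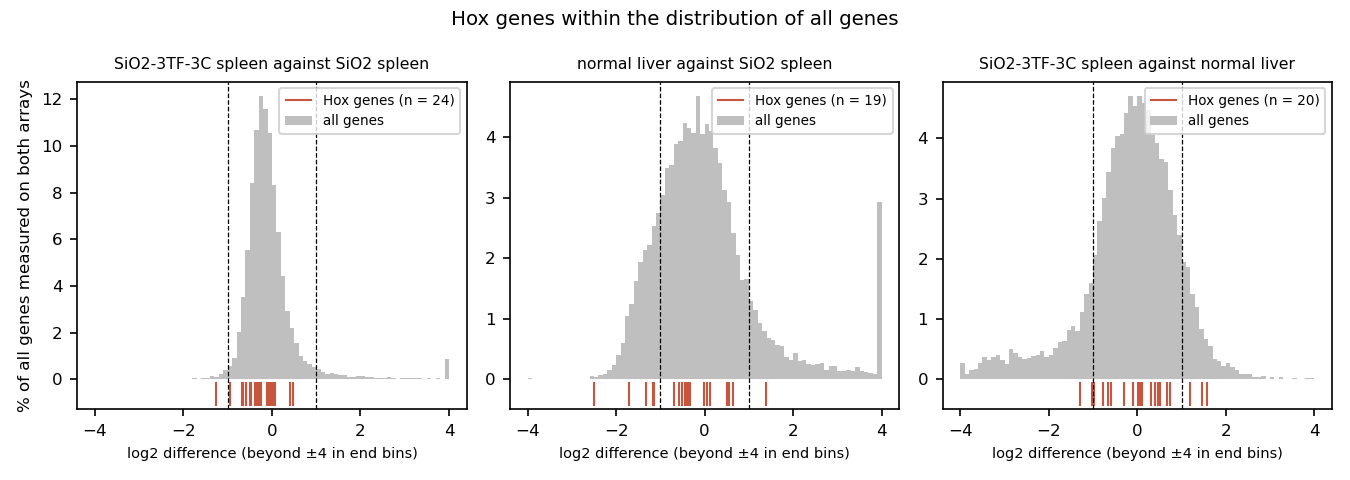
Log2 differences of Hox genes (red ticks) below the distribution over all genes measured on both arrays (grey bars, percent of genes per bin of 0.1) in the 3 comparisons; dashed lines mark 2-fold. The Hox ticks span -1.27 to 0.49 in the first panel, and Hoxb9 at -2.51 is the lowest in the second.

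The third comparison sets the SiO2-3TF-3C spleen against normal liver, and so reuses an array of each of the others. Of 26 Hox genes measured on at least 1 side, 3 lay 2-fold or more higher with 3TF-3C and 2 lower, against 10.5% higher and 15.5% lower over all genes. That split was 5 higher and 1 lower with quantile normalization and 3 and 1 with median scaling. It was 3 and 3 with scaling to housekeeping genes, and 4 and 1 with the authors' deposited values, where fewer Hox genes were measured. Over all genes, the shares higher and lower moved too. They were 13.2% and 13.5% with quantile normalization and 11.9% and 14.4% with median scaling. With housekeeping genes they were 9.65% and 16.3%, and with the authors' values 13.4% and 13.3%. Hoxb9 was at -3.32 in the SiO2-3TF-3C spleen and -4.88 in liver (1.56 ± 0.28). Hoxa7 was 1.47 ± 0.22 and Hoxb7 1.20 ± 0.24 higher in the SiO2-3TF-3C spleen. Hoxc11 was at -5.70 in the SiO2-3TF-3C spleen and -4.42 in liver (-1.29 ± 0.36), and Hoxa9 at -3.96 in the SiO2-3TF-3C spleen and -2.94 in liver (-1.01 ± 0.22). Hoxb5 lay just inside 2-fold at -0.98 ± 0.22, and Hoxd11 was at least 1.91-fold higher. Hoxb4 was 0.68 ± 0.20 and Hoxc4 0.73 ± 0.25 higher in the SiO2-3TF-3C spleen. Hoxc12 was at -0.77 ± 0.22, Hoxa13 at -0.67 ± 0.27 and Hoxa4 at -0.60 ± 0.24. The direction thus varied from gene to gene, with 12 of 20 genes above 0 and a median of 0.09, against -0.046 over all genes. With normexp 6 of the 20 were above 0 and the Hox median turned to -0.20, against -0.16 over all genes. As in the second comparison, the offset means that this turn does not decide the direction. The brighter Hoxa9 probe, flagged spots kept, gave -1.91. With normexp none of the 5 was past 2-fold, the values being 0.37 for Hoxb9, 0.73 for Hoxa7, 0.29 for Hoxb7, -0.55 for Hoxc11 and -0.68 for Hoxa9.

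In these mixed tissues fewer cells that use a gene and less of its RNA per cell cannot be told apart. Marker lists moved beside the Hox genes. In the SiO2-3TF-3C spleen all 8 hepatocyte markers and 7 of 8 erythroid markers were 2-fold or more higher, relative to the SiO2 spleen. The 6 B cell markers had a median difference of -0.57, the 6 T cell markers -0.60, the 14 fibroblast and stroma markers -0.29 and the 10 measured progenitor markers -0.14. In liver against the SiO2 spleen the spleen organ regulators had a median of -1.11, fibroblast and stroma markers -1.07 and progenitor markers -0.98, while the Hox median was -0.40. Summed levels, as log2 values, were 6.59 in the SiO2-3TF-3C spleen, 6.28 in liver and 6.83 in the SiO2 spleen for fibroblast and stroma markers. For progenitor markers they were 4.57, 4.02 and 4.73 in the same order, with Mecom well above background on no array. Albumin (Alb) had a level of 6.06 in the SiO2-3TF-3C spleen, 6.25 in liver and -3.94 in the SiO2 spleen, and the liver regulator Hnf4a 2.49, 5.68 and -5.88. Col1a1, the collagen of fibroblasts, differed by -0.08 ± 0.20 between the spleen samples, the progenitor genes Kit and Cd34 by 0.08 ± 0.20 and -0.63 ± 0.20, and the lymphocyte genes Cd79a and Cd3e by -0.57 ± 0.20 and -0.45 ± 0.20. Of 6 skeletal muscle markers 3 were lower by 2-fold or more beside Hoxd11, with Myl1 at -1.85 ± 0.22, Myh1 at -1.82 ± 0.23 and Myh4 at least 4.14-fold lower. The part of these cell types in the Hox differences was not tested.

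The partners of Hox proteins were measured on all 3 arrays. Of 9 cofactors 0 were past 2-fold in the SiO2-3TF-3C spleen against the SiO2 spleen (median -0.11) and 0 in liver against the SiO2 spleen (median -0.43). Meis1, partner of Hoxa9 in blood progenitors, was at -0.05 in the SiO2-3TF-3C spleen, -0.08 in liver and 0.41 in the SiO2 spleen. Pknox1 differed by -0.53 ± 0.20, Meis2 by -0.36 ± 0.20 and Pbx3 by 0.10 ± 0.20 between the spleen samples.

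Of 30 Polycomb genes 1 was lower by 2-fold or more between the spleen samples and 0 were higher (median -0.25). This was Cbx7, a reader of the Polycomb mark, at -1.22 in the SiO2-3TF-3C spleen and -0.22 in the SiO2 spleen (2.001-fold lower, with a technical error of 0.20 on the log2 scale), at the threshold itself. Ezh2, which writes that mark, and Bmi1, a subunit of the complex that reads it, differed by -0.05 ± 0.20 and -0.20 ± 0.20. In liver against the SiO2 spleen 5 of the 30 were at least 2-fold lower and 1 higher, a share lower of 16.7%, the same as the 16.7% over all genes. Ezh2 was at -1.45 ± 0.20 and Cbx2 at 2.11 ± 0.21. Of 14 trithorax and demethylase genes, which act against Polycomb, 0 were past 2-fold between the spleen samples. In liver against the SiO2 spleen 2 (14.3%) were lower by that much, near the 16.7% over all genes. The list's other 2 members, Kmt2a among them, had no probe matched here.

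Of 17 retinoid genes, all measured, 2 were higher by 2-fold or more between the spleen samples and 0 lower. Aldh1a1, which makes retinoic acid, was at 2.90 in the SiO2-3TF-3C spleen, 5.45 in liver and 0.26 in the SiO2 spleen (2.64 ± 0.20 between the spleen samples). Cyp26a1, which degrades retinoic acid in liver, was at -2.54 in the SiO2-3TF-3C spleen, 0.13 in liver and -4.60 in the SiO2 spleen (2.06 ± 0.26). The embryonic enzyme Aldh1a2, the stromal enzyme Cyp26b1 and the receptor Rarb differed by -0.31 ± 0.21, -0.24 ± 0.20 and -0.31 ± 0.20 between the spleen samples. Liver was at least 2-fold higher than the SiO2 spleen for 6 of the 17 (35.3%) and lower for 1 (5.88%). Over all genes the shares were 15.1% higher and 16.7% lower. The hepatocyte markers were higher in the same 2 samples, and their part in the retinoid values was not tested.

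Genes around the clusters and related homeobox genes were looked at next. Of 15 measured flanking genes, none more than 4 coding genes from a Hox gene in RefSeq order, 0 were past 2-fold between the spleen samples (median -0.18). Skap2 beside the Hoxa cluster and Skap1 beside the Hoxb cluster, both adaptors of immune cells, differed by -0.18 ± 0.20 and -0.37 ± 0.20. In liver against the SiO2 spleen 4 flanking genes were lower, with Skap1 at -1.48 ± 0.20, and 1 was higher, the mitochondrial enzyme gene Hibadh near Hoxa13 at 2.75 ± 0.20. Those shares were 26.7% lower and 6.67% higher, beside 16.7% and 15.1% over all genes. Of 12 ParaHox and related genes with a probe, 4 were measured in the SiO2-3TF-3C spleen, 8 in liver and 7 in the SiO2 spleen. Cdx2, an intestinal regulator, was measured in liver alone (level -4.83), and Evx1, beside Hoxa13, on no array. The antisense transcript Hoxa11os was measured on every array, at -3.71 in the SiO2-3TF-3C spleen (0.29 ± 0.23 above the SiO2 spleen) and -3.29 in liver (0.71 ± 0.23 above the SiO2 spleen), whereas Hoxa11 was measured on none. Hoxd3os1 was dim on all 3 arrays, and no probe was matched here for Hotair.

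**Figure D4:**
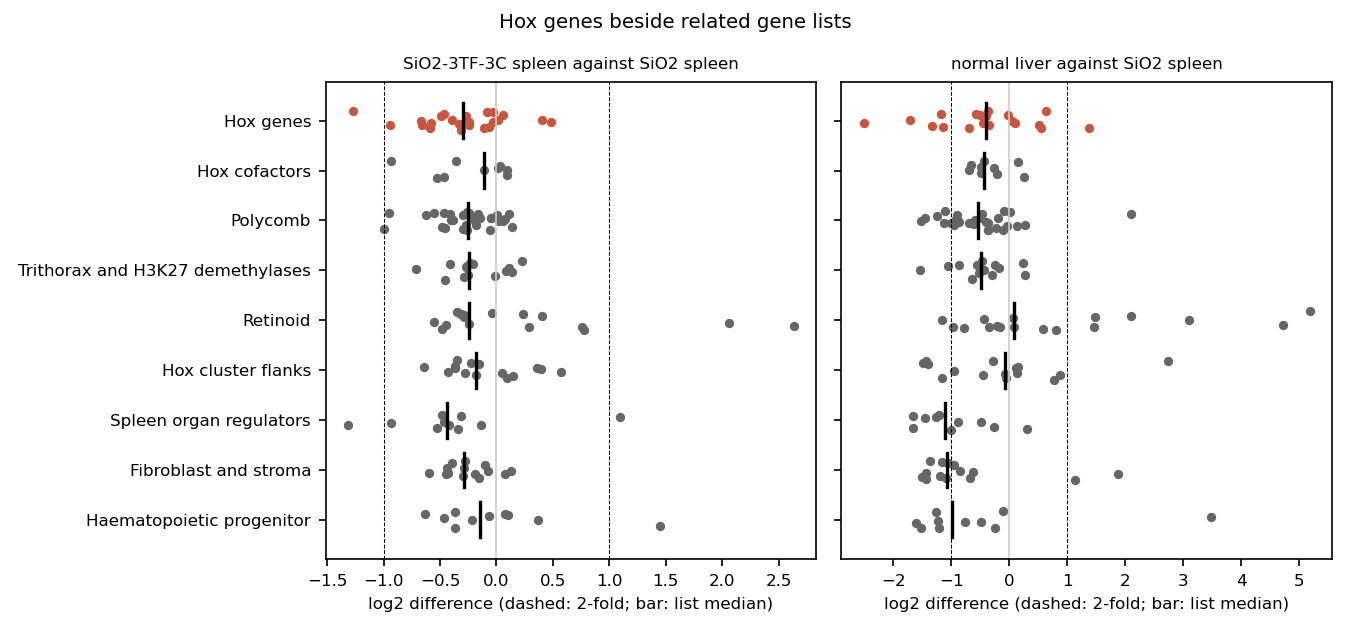
Log2 differences of single genes (points) measured on both arrays, for the Hox genes (red) and related lists (grey), in the SiO2-3TF-3C spleen against the SiO2 spleen (left) and in liver against the SiO2 spleen (right); bars are list medians and dashed lines 2-fold. All medians lie below 0 on the left, from -0.11 for Hox cofactors to -0.44 for spleen organ regulators. The 2 retinoid genes beyond 2-fold there are Aldh1a1 and Cyp26a1.

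Among the spleen organ regulators, most of which are themselves homeobox genes, 1 was lower and 1 higher by 2-fold or more between the spleen samples. Nkx3-2, which acts in early spleen development, was at -4.84 in the SiO2-3TF-3C spleen, -4.98 in liver and -3.52 in the SiO2 spleen (-1.32 ± 0.24 between the spleen samples). Bhlha15, a gene of secretory cells, was 1.09 ± 0.20 higher. Nkx2-5, Nkx2-3, Tcf21 and Wt1, which the spleen primordium also uses, differed by -0.42 ± 0.20, -0.34 ± 0.20, -0.32 ± 0.20 and -0.53 ± 0.20. In liver against the SiO2 spleen 5 of 10 measured regulators (50%) were at least 2-fold lower and 0 higher, beside 16.7% and 15.1% over all genes.

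**Figure D5:**
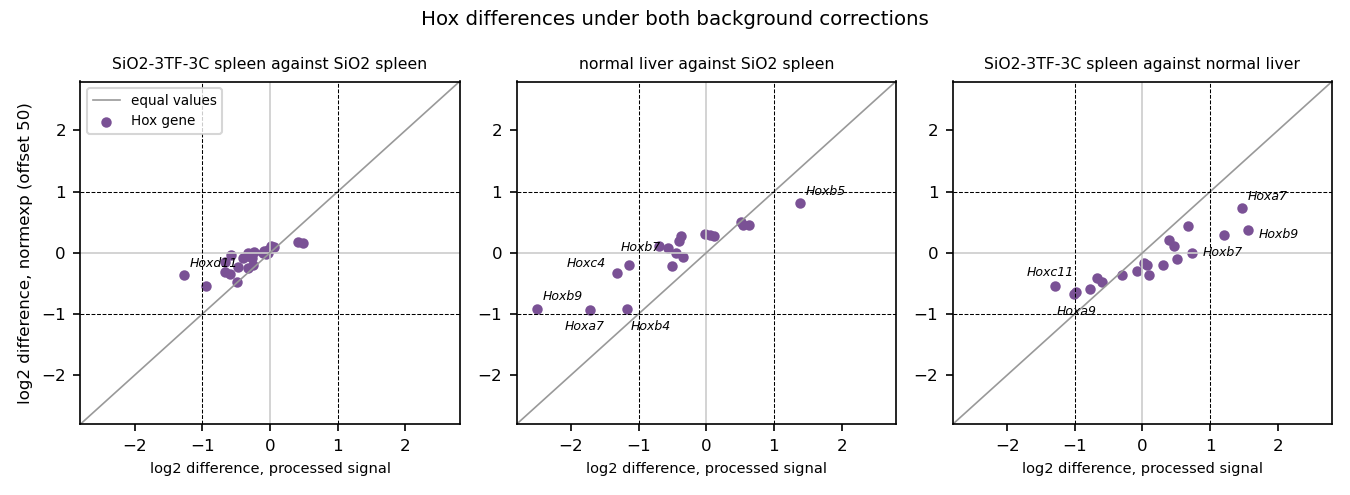
Log2 difference of each Hox gene measured on both arrays with the processed signal (horizontal axis) and with normexp background correction and an offset of 50 (vertical axis); the diagonal marks equal values, dashed lines 2-fold, and genes past 2-fold on the horizontal axis are named. No Hox gene is beyond 2-fold on the vertical axis, where Hoxa7 in liver against the SiO2 spleen reaches -0.93.

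Hoxb3 and Hoxa13 each had 2 probes. The 2 probes of Hoxb3 gave -0.32 and -0.24 between the SiO2-3TF-3C spleen and the SiO2 spleen, and those of Hoxa13 -0.03 and 0.20. The second Hoxa13 probe was not well above background in liver or the SiO2 spleen, so its values are no check on the first. In liver against the SiO2 spleen the Hoxb3 probes gave -0.34 and 0.01 and the Hoxa13 probes 0.64 and 0.38; the Hoxb3 probes had technical errors of 0.21 and 0.33.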

How the data were processed

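RNA of 3 samples was hybridised to Agilent mouse arrays (design 026655, build mm9, per the file headers) in 1 colour (Cy3). RNA was prepared, per the labels' protocols, with a blood RNA kit, globin messages were depleted and cRNA was made by linear amplification, a protocol written for blood. The deposited scanner files hold linear intensity after background subtraction and detrending, made with Feature Extraction 11.0.1.1 per the file headers, whereas the submitters' processing notes name version 9.1. The authors' deposited series table holds log2 values, since each column correlated at r of 0.993 to 0.996 with its array's own log2 intensity; the sources used here do not give the method. The scanner files' deposited flags are other values, 0 or 1 per spot.

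Control spots and spots flagged as outliers were left out (283 for the SiO2-3TF-3C spleen, 469 for liver and 182 for the SiO2 spleen, of 43020), spots of a probe were averaged, and each array's 75th percentile was subtracted. A probe counted as well above background where at least 50% of its spots did. No spot was saturated (0 on each array). Probes were named through RefSeq accessions (27038 of 39112 probes, on GRCm38.p6 names), and the brightest probe with an unflagged spot on every array stood for a gene. A 2-fold rule without a test was used, since each group has 1 array. Promoters were matched by symbol for 22 of 39 members. The members, lists and alternatives were chosen with earlier results of these data known. Every Hox gene is counted, a few genes are not reported here by name, and from other lists members past 2-fold between the spleen samples (at most 4) and fixed anchor genes were named, and other genes, such as Hibadh, were added after their values were seen. The script that computes folds was checked on simulated data with known folds, which bears on the arithmetic and not on any call. Python 3.11.15, limma 3.58.1 and R 4.3.3 were used.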

Additional observations from a re-analysis of the deposited data

How the results depend on the processing

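No paired analysis was possible because each group has 1 sample. The values depended most on the background correction. With normexp, 0 Hox genes were past 2-fold in any comparison (main counts 0 higher and 1 lower, 2 higher and 7 lower, and 3 higher and 2 lower, in the order of the report), and the medians were -0.047 for the SiO2-3TF-3C spleen against the SiO2 spleen, 0.12 for liver against the SiO2 spleen and -0.20 for the SiO2-3TF-3C spleen against liver. An offset of 50 exceeds many of the Hox intensities and shrinks their differences by construction. It was made with median spot signals, a choice after seeing the data, as the files hold no mean signal.

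Without a filter on dim probes, or with the laxer test for a positive and significant signal, lower genes numbered 3 in the SiO2-3TF-3C spleen against the SiO2 spleen; liver against the SiO2 spleen had 13 lower and 4 higher, and the SiO2-3TF-3C spleen against liver 8 higher and 4 lower. Without a filter these are counts of 39 Hox genes, beside 2.70% lower over all genes between the spleen samples, 16.2% lower and 15.6% higher in liver, and 10.4% higher and 15.7% lower in the third comparison. Under the laxer test 33 Hox genes passed in liver. Of all 20546 genes, 19685 passed it in liver or the SiO2 spleen. With only genes measured on all 3 arrays, 0 Hox genes were lower between the spleen samples. In liver against the SiO2 spleen 1 was higher, while Hoxa7, Hoxb4, Hoxb7, Hoxb9 and Hoxc4 stayed 2-fold or more lower. Of all 16087 genes measured on all 3 arrays, 2256 were higher and 2787 lower in liver. In the SiO2-3TF-3C spleen against liver, Hoxa7, Hoxb7 and Hoxb9 stayed higher and 1 Hox gene was lower. The last count was also 1 with quantile normalization (5 higher there), median scaling and the authors' deposited values. That table held the probe of fewer Hox genes, so 17 were well above background in the SiO2-3TF-3C spleen, 12 in liver and 16 in the SiO2 spleen, and 18, 17 and 17 were measured in the 3 comparisons. The other 115 summary values stayed within 1.5 times the main count or within the technical error of a difference, as did 653 values of single genes, while 70 moved further, 44 of them with normexp. No 2-fold call turned its sign. Much of this tally was fixed by the settings themselves, so the unchanged values say little about stability. A filter on dim probes leaves the difference as it was for a gene measured on both arrays. Averaging probes could change only the 3 Hox genes with several probes. Array medians or housekeeping genes as the reference moved all genes alike, by 0.061 or less, which is below the technical errors. Over all genes, normexp gave 592 higher and 40 lower between the spleen samples (924 and 245 without it), 1633 lower in liver against the SiO2 spleen (2946 without it) and 861 higher in the SiO2-3TF-3C spleen against liver (1848 without it). Between the spleen samples 555 were lower without a filter or with the laxer test, and 161 among genes measured on all 3 arrays. Scalings shifted the median of all genes by over 0.1 in some comparisons: normexp by 0.19 in liver against the SiO2 spleen and by -0.11 in the SiO2-3TF-3C spleen against liver, and there also quantile normalization by 0.12 and the authors' values by 0.14.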

Other observations

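Other marker lists also held genes past 2-fold between the SiO2-3TF-3C spleen and the SiO2 spleen. Msln, a surface protein of mesothelium, had a level of -2.01 in the SiO2-3TF-3C spleen, -2.31 in liver and -4.87 in the SiO2 spleen (2.86 ± 0.24 between the spleen samples), and Gpm6a of the same list was 1.02 ± 0.21 higher. The list did not move as one: Wt1 was at -0.53 ± 0.20, and Upk3b, Lrrn4 and Upk1b were not well above background in either spleen sample. Slc2a4, the insulin-responsive glucose transporter, was 2.14 ± 0.21 and Adrb3, an adrenergic receptor of fat, 1.54 ± 0.30 higher. Tal1, a regulator of blood stem and erythroid cells, was 1.45 ± 0.20 higher, with 7 of 8 erythroid markers also past 2-fold. Colec11 was 2.79 ± 0.22, Cdh16 of kidney epithelium 1.51 ± 0.27 and Clec4g of liver endothelium 1.01 ± 0.20 higher. These have no replicate and no test.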
